A study of Mus musculus with 13 samples.

Results

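The GIMAP genes (GTPases of immunity-associated proteins) form 1 tight cluster on mouse chromosome 6. The 8 listed genes, *Gimap1*, *Gimap3*, *Gimap4*, *Gimap5*, *Gimap6*, *Gimap7*, *Gimap8* and *Gimap9*, were described here among 35906 genes with a transcript in the deposited tables. They were taken from a list of names, with no threshold on a measured value. RNA was sequenced from 13 libraries of M2 thymocytes, the CD69-MHCI+ fraction of CD4 single-positive (CD4SP) cells. Each library is treated here as 1 mouse, numbered by its replicate, although the study's methods for RNA sequencing do not state this. All mice carried the transgenic Lm54 T cell receptor (TCR), which recognizes the listeriolysin O peptide LLO on the MHC class II molecule I-Ab, on a Rag1-/- background, so that every library came from cells with 1 receptor. In CtslΔTEC mice a floxed *Ctsl* gene, which encodes the lysosomal protease cathepsin L, is deleted in thymic epithelial cells by a Foxn1-cre transgene, and the sorted thymocytes themselves are not the target of the deletion. The controls are given as Ctsl fl/fl (WT) in the labels and as Ctsl+/+ in the study. Unstimulated cells gave 5 CtslΔTEC and 4 control libraries. Cells of 2 CtslΔTEC and 2 control libraries were cultured for 4 h with plate-bound LLO:I-Ab at 1 µg per ml and soluble anti-CD28 at 250 ng per ml. The labels give no age for single mice.

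GIMAP proteins are GTP-binding proteins of lymphocytes, many of them attached to membranes inside the cell. They are best known for keeping resting T cells alive: mice without GIMAP5 or GIMAP1 lose peripheral T cells, and GIMAP4 is linked to the course of T cell death. Thymocytes turn the cluster on as they mature.

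The cluster spanned chr6:48647234-48770851 in GRCm38 (GENCODE M21), in the order *Gimap8*, *Gimap9*, *Gimap4*, *Gimap6*, *Gimap7*, *Gimap1*, *Gimap5* and *Gimap3*. *Gimap6* and *Gimap3* lie on the minus strand and the other members on the plus strand. To show what makes these genes 1 family, the 24 coding bases of the first GTP-binding loop were read from the longest coding transcript of each member in GENCODE M21. The capitals mark the codons for the first glycine and for the closing glycine, lysine and serine of the loop.
Gimap1: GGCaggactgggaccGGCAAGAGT
Gimap3: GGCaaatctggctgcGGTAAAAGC
Gimap4: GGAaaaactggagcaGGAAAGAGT
Gimap5: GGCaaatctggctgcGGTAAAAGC
Gimap6: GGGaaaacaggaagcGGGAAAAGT
Gimap7: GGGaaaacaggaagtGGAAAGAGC
Gimap8 loop 1: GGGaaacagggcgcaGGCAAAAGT
Gimap8 loop 2: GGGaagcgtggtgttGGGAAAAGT
Gimap8 loop 3: GGAaggagtggggctGGAAAGAGT
Gimap9: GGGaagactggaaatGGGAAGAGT
*Gimap8* held 3 such loops in 688 codons, at codons 55, 291 and 482, whereas each of the other members held 1 loop in 291 to 328 codons. The loops of *Gimap3* and *Gimap5* were the same in all 24 bases, and the next closest pair, *Gimap6* and *Gimap7*, differed at 4 bases. *Gimap3* and *Gimap5* also shared 335 stretches of 31 bases, the default word length of the software that assigned the reads, which was 13.2% of the stretches of *Gimap3* and 8.02% of those of *Gimap5*. No other pair of members shared a stretch. The overlapping gene *Gm28053* shared 168 stretches with *Gimap1*, 124 with *Gimap5*, 51 with *Gimap7* and 27 with *Gimap3*. The estimated gene totals of *Gimap5*, *Gimap1* and *Gimap6* departed from a whole number by more than 0.05 in 12 of 13 libraries and those of *Gimap3* in 10 of 13. Those of *Gimap4* and *Gimap9* were whole within that tolerance in every library. The levels of *Gimap3*, *Gimap5*, *Gimap1* and *Gimap7* are uncertain to the extent that shared stretches were divided wrongly. *Gimap6* shared no stretch with another member or with *Gm28053*, and other genes were not searched. What its totals share is therefore not known, and its level is uncertain as well. The study's methods name default settings, under which kallisto does not use strand, so that reads of overlapping genes on opposite strands cannot be told apart.

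Before stimulation the 8 members together held 0.314% to 0.391% of each library's transcripts. In TPM, the share of transcripts scaled to a fixed total and corrected for transcript length, on which levels of different genes can be compared, the 8 members summed to 3311 ± 113 in control cells (SD, n = 4) and to 3695 ± 149 in CtslΔTEC cells (SD, n = 5). The single control libraries lay between 3143 and 3377 TPM and the CtslΔTEC libraries between 3546 and 3911 TPM, without overlap. Much of this gap lay in *Gimap6* (means of 785 and 949 TPM) and *Gimap3* (791 and 929 TPM). Neither was called different at rest in the test on counts given below. *Gimap4* went the other way (787 and 664 TPM). After stimulation the sum was 1463 ± 23.9 TPM in control cells and 1221 ± 82.3 TPM in CtslΔTEC cells (SD, n = 2 each). Every stimulated library lay below every unstimulated library. Such sums are descriptions of the family as a whole, and bulk RNA cannot tell fewer cells with a transcript from less of it per cell.

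**Figure D1:**
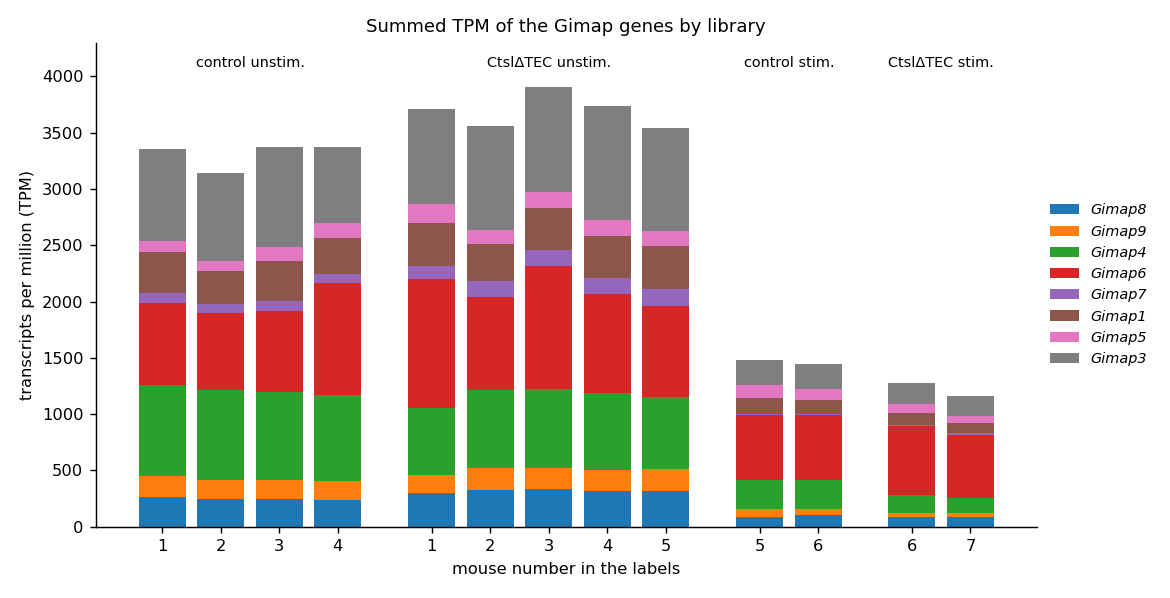
Summed TPM of the 8 *Gimap* genes in each library (1 bar per mouse, numbered as in the labels; colours, genes in chromosome order). Unstimulated libraries stood at 3143 to 3911 TPM and stimulated ones at 1162 to 1479 TPM, with *Gimap6* the widest segment of each stimulated bar.

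The members fell into 3 abundant and 5 less abundant genes. In unstimulated control cells *Gimap3* stood at 791 ± 86.8, *Gimap4* at 787 ± 16.9 and *Gimap6* at 785 ± 144 TPM (SD, n = 4), and their ranges overlapped, so that no order among them can be given. *Gimap1* followed at 335 ± 30.6, *Gimap8* at 249 ± 10.0 and *Gimap9* at 173 ± 11.3 TPM, each without overlap with its neighbours in the order. *Gimap5* at 110 ± 19.9 and *Gimap7* at 81.7 ± 8.07 TPM had overlapping ranges. The value of *Gimap5* rests in part on Gimap5-202, a processed transcript of 464 bases that took 46.7% of the gene's TPM but 10.4% of its counts in these libraries. With protein-coding transcripts alone *Gimap5* stood at 43.9 ± 3.65 TPM, below *Gimap7* at 80.0 ± 7.47 TPM. In unstimulated CtslΔTEC cells *Gimap6* at 949 ± 159 and *Gimap3* at 929 ± 59.8 TPM led, and *Gimap4* at 664 ± 44.2 TPM followed, below the range of both (SD, n = 5). After stimulation *Gimap6* was the most abundant member in both genotypes, at 575 ± 1.04 TPM in control and 585 ± 40.4 TPM in CtslΔTEC cells, and held 39.3% and 47.9% of the summed TPM against 23.7% and 25.6% before. *Gimap7* was the least abundant, at 13.1 ± 2.94 and 12.4 ± 0.291 TPM (SD, n = 2 each).

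For comparisons between groups, values are given as CPM, counts scaled to a fixed library total with TMM factors, and fold changes come from edgeR's quasi-likelihood test over all genes that passed a filter on low counts, with Benjamini-Hochberg adjustment over all of them and a threshold of 0.1. All 8 members passed the filter in every comparison. In the first comparison, which asks whether M2 cells selected without epithelial cathepsin L differ at rest, 3 members were higher and 1 was lower in CtslΔTEC cells. *Gimap7*, *Gimap8* and *Gimap5* were higher, *Gimap4* was lower, and *Gimap6*, *Gimap3*, *Gimap9* and *Gimap1* did not pass the threshold. Of all 13152 genes tested, 6.42% were called higher and 8.36% lower. This balance turned when library totals alone set the scale, with 1163 of 2048 called genes higher. There 4 members were higher and 1 was lower. The median log2 difference of the 8 members was 0.20, against 0.01 over all genes tested.

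*Gimap7*, whose protein can stimulate GTP hydrolysis by its relatives, showed the greatest difference. The control libraries held 60.6, 60.4, 65.3 and 56.2 CPM of *Gimap7*, and the CtslΔTEC libraries held 81.2, 104, 93.4, 97.9 and 107 CPM. Every CtslΔTEC library was above every control library, with a log2 fold change of 0.68 ± 0.08 (SE; 1.6-fold; adjusted p = 0.000271).

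*Gimap8*, the member with 3 GTP-binding loops, stood at 523, 537, 496 and 496 CPM in control libraries and at 579, 700, 646, 636 and 638 CPM in CtslΔTEC libraries. The groups did not overlap, with a log2 fold change of 0.32 ± 0.07 (SE; 1.25-fold; adjusted p = 0.00779). *Gimap5*, which T cells need for survival, stood at 79.7, 71.6, 80.2 and 83.4 CPM in control and at 104.8, 90.1, 89.9, 97.0 and 98.4 CPM in CtslΔTEC libraries. These groups did not overlap either, with a log2 fold change of 0.29 ± 0.07 (SE; 1.22-fold; adjusted p = 0.0176). The call of *Gimap5* was lost with a transcript length offset (0.32, adjusted p = 0.137) and with the mouse number as a block (0.28, adjusted p = 0.104).

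*Gimap4* went the other way. Its control libraries held 881, 911, 862 and 890.0 CPM, and its CtslΔTEC libraries held 636, 773, 713, 723 and 713 CPM. Every CtslΔTEC library was below every control library, with a log2 fold change of -0.31 ± 0.06 (SE; 1.24-fold lower; adjusted p = 0.00836). These 4 members were those whose groups did not overlap, as was so for 13.9% of all genes tested.

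The other members overlapped between genotypes. *Gimap6* stood at 736, 727, 758 and 973 CPM in control and at 1028, 915, 907, 893 and 884 CPM in CtslΔTEC libraries, so that 1 control mouse reached into the CtslΔTEC range (log2 fold change 0.22 ± 0.09, adjusted p = 0.182). Without that mouse the log2 fold change of *Gimap6* was 0.33 (adjusted p = 0.0157). *Gimap3* ranged from 1007 to 1242 CPM in control and from 1171 to 1390 CPM in CtslΔTEC libraries (0.19 ± 0.08, adjusted p = 0.157). *Gimap9* ranged from 124 to 137 and from 112 to 147 CPM (0.05 ± 0.08, adjusted p = 0.744). *Gimap1* ranged from 221 to 270 and from 227 to 284 CPM (0.05 ± 0.08, adjusted p = 0.798).

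**Figure D2:**
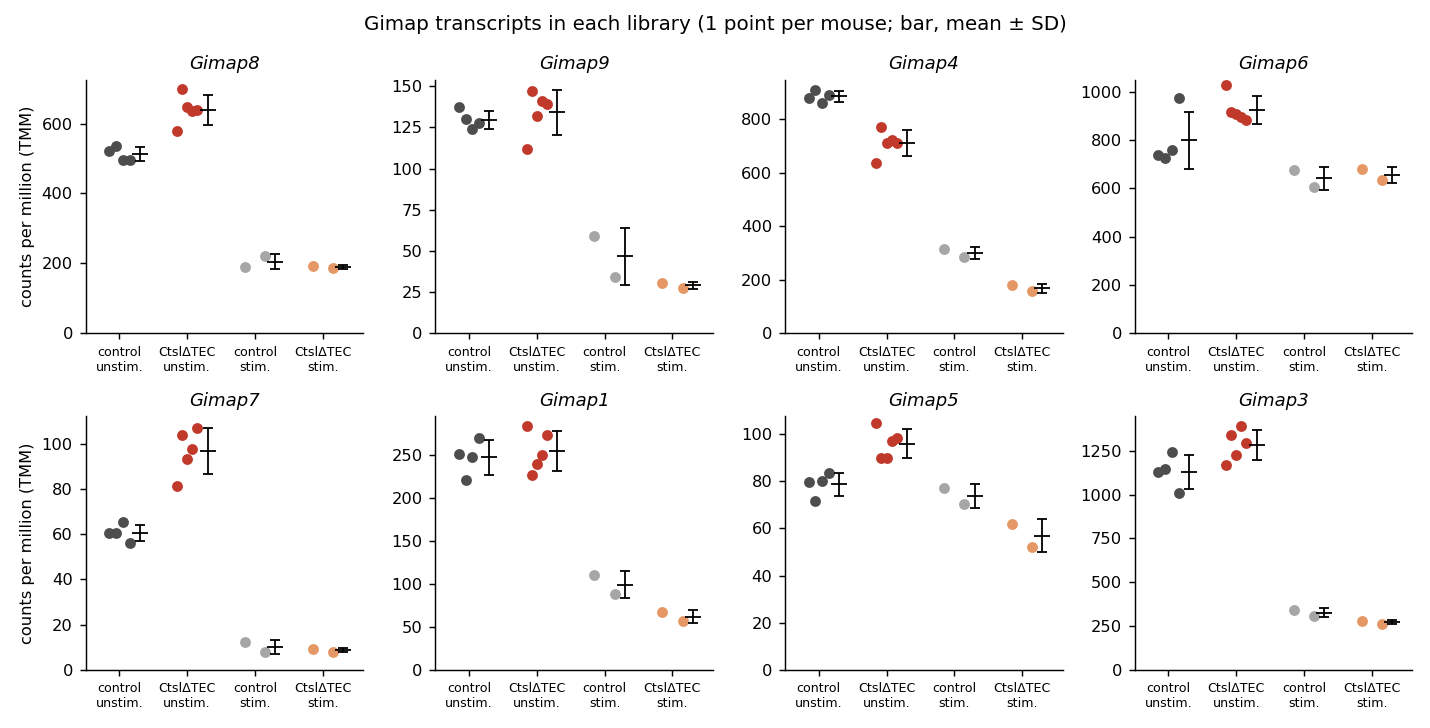
CPM (TMM) of each member in each library (points, 1 per mouse; bars, mean ± SD; n = 4, 5, 2 and 2 from left to right). *Gimap7*, *Gimap8* and *Gimap5* stood higher and *Gimap4* lower in unstimulated CtslΔTEC than in control libraries without overlap, and all members but *Gimap5* and *Gimap6* lay well below their unstimulated levels in every stimulated library.

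Transcripts of the 4 Y-linked genes *Ddx3y*, *Eif2s3y*, *Kdm5d* and *Uty* moved with genotype among unstimulated mice. Their summed level was 342 to 474 CPM in all 5 CtslΔTEC libraries but 393 CPM in 1 control library and 6.28 to 8.46 CPM in the other 3. With this level as a covariate only *Gimap7* kept an adjusted p below the threshold (log2 fold change 0.55, adjusted p = 0.0785). The log2 fold changes of *Gimap8*, *Gimap5* and *Gimap4* were then 0.36, 0.27 and -0.28, with adjusted p = 0.198, 0.389 and 0.307. The control library with Y-linked transcripts held 65.3 CPM of *Gimap7*, 496 of *Gimap8*, 80.2 of *Gimap5* and 862 of *Gimap4*, each outside the range of the CtslΔTEC libraries. It also lay outside the other controls, on the side of the CtslΔTEC libraries, for *Gimap7* (56.2 to 60.6 CPM in the others) and *Gimap4* (881 to 911 CPM), but not for *Gimap5* and *Gimap8*. Its *Gimap3*, at 1242 CPM, lay inside the CtslΔTEC range and above the other controls.

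The sorted cells carried T cell transcripts as their label says, with the summed *Cd3e*, *Cd3g*, *Cd4*, *Trac*, *Lck*, *Cd5* and *Zbtb7b* at 4513 to 5109 CPM in unstimulated libraries. The 10 markers of double-positive (DP) thymocytes, the stage before lineage choice, summed to 128 to 178 CPM in control and 461 to 531 CPM in CtslΔTEC unstimulated libraries. Endothelial cells also transcribe *Gimap* genes. Of 5 endothelial markers *Pecam1*, which T cells share, made up nearly all of the signal, at 233 CPM in each genotype, and the group means of the defining markers *Cdh5*, *Kdr* and *Tek* were at most 0.138 CPM. Of 4 markers of semimature cells, *Ccr9* was higher (log2 fold change 0.96, adjusted p = 0.000301), *Ccr8* was lower (-5.65, adjusted p = 1.46e-05), and *Cd24a* and *Cd69* differed by 0.52 and -0.05 (adjusted p = 0.431 and 0.865). Their sum, 139 to 186 CPM in control and 215 to 278 CPM in CtslΔTEC libraries, therefore does not stand for all 4. The part of the DP and semimature markers in the *Gimap* differences was not tested. A date in the names of the deposited tables split the unstimulated libraries in 2 sets. Within the later set of 3 CtslΔTEC and 3 control libraries, the log2 fold changes were 0.73 for *Gimap7*, 0.34 for *Gimap8*, 0.30 for *Gimap5* and -0.27 for *Gimap4*, with adjusted p = 0.00021, 0.0148, 0.0238 and 0.0426. *Gimap6* also passed there, at 0.28 (adjusted p = 0.0285).

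Stimulation lowered the cluster in both genotypes. In control cells 7 of 8 members fell and none rose, against 34.8% of the 14241 genes tested that fell and 32.9% that rose. In CtslΔTEC cells 8 of 8 members fell, against 38.2% of genes that fell and 32.9% that rose. The median log2 change of the members was -1.36 in control and -2.01 in CtslΔTEC cells, against 0.01 and -0.06 over all genes. Both responses were fitted in 1 model of 13 libraries, and all stimulated libraries carried a file date of their own, so that stimulation, culture for 4 h and file date cannot be told apart.

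*Gimap7* fell the most. The stimulated control libraries held 12.3 and 7.89 CPM and the stimulated CtslΔTEC libraries 9.26 and 8.01 CPM, from 95, 207, 105 and 131 estimated counts. All 4 values lay far below the lowest unstimulated library, at 56.2 CPM. The log2 change was -2.60 ± 0.17 in control (SE; 6.07-fold lower; adjusted p = 4.4e-09) and -3.44 ± 0.17 in CtslΔTEC cells (SE; 10.8-fold lower; adjusted p = 1.88e-10).

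*Gimap3*, whose GTP-binding loop has the same bases as that of *Gimap5*, fell from 1131 ± 96.7 to 343 and 309 CPM in control cells and from 1285 ± 86.8 to 280.1 and 262 CPM in CtslΔTEC cells. These were log2 changes of -1.75 ± 0.11 and -2.19 ± 0.11 (SE; adjusted p = 2.94e-09 and 2.02e-10). *Gimap4* fell to 316 and 285 CPM in control and to 179 and 156 CPM in CtslΔTEC cells, with log2 changes of -1.51 ± 0.10 and -2.04 ± 0.10 (SE; adjusted p = 4.25e-09 and 1.41e-10). In neither gene did a stimulated library come near an unstimulated one.

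*Gimap1*, which lymphocytes need once they have matured, fell to 110.2 and 88.1 CPM in control and to 67.6 and 56.4 CPM in CtslΔTEC cells, log2 changes of -1.28 ± 0.13 and -1.99 ± 0.13 (SE; adjusted p = 5.16e-07 and 3.73e-09). *Gimap9* fell to 59.0 and 34.2 CPM and to 30.4 and 27.6 CPM, log2 changes of -1.45 ± 0.17 and -2.16 ± 0.18 (SE; adjusted p = 3.2e-06 and 4.26e-08). The stimulated control pair of *Gimap9* was the most uneven of the family. *Gimap8* fell to 189.9 and 219.7 CPM and to 193 and 185 CPM, log2 changes of -1.28 ± 0.10 and -1.70 ± 0.10 (SE; adjusted p = 1.96e-08 and 6.02e-10).

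*Gimap5* and *Gimap6* changed the least. *Gimap5* held 77.4 and 70.2 CPM in stimulated control cells, inside its unstimulated range of 71.6 to 83.4 CPM or just under it, with a log2 change of -0.05 ± 0.10 (SE; adjusted p = 0.688). With protein-coding transcripts alone this change of *Gimap5* was -0.22 and passed the threshold (adjusted p = 0.0585). In CtslΔTEC cells it fell from 96.0 ± 6.28 to 61.9 and 52.0 CPM, a log2 change of -0.70 ± 0.10 (SE; adjusted p = 1.48e-05). *Gimap6*, whose protein works with the autophagy factor GABARAPL2, held 675 and 607 CPM in stimulated control and 680 and 632 CPM in stimulated CtslΔTEC cells. Its log2 change was -0.27 ± 0.12 in control (SE; adjusted p = 0.0607) and -0.44 ± 0.12 in CtslΔTEC cells (SE; adjusted p = 0.00367). The call of *Gimap6* in control cells was lost with protein-coding transcripts alone (-0.22), after thinning to the smallest total (-0.20), without unstimulated control mouse 4 (-0.16) and without stimulated control mouse 6 (-0.21).

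**Figure D3:**
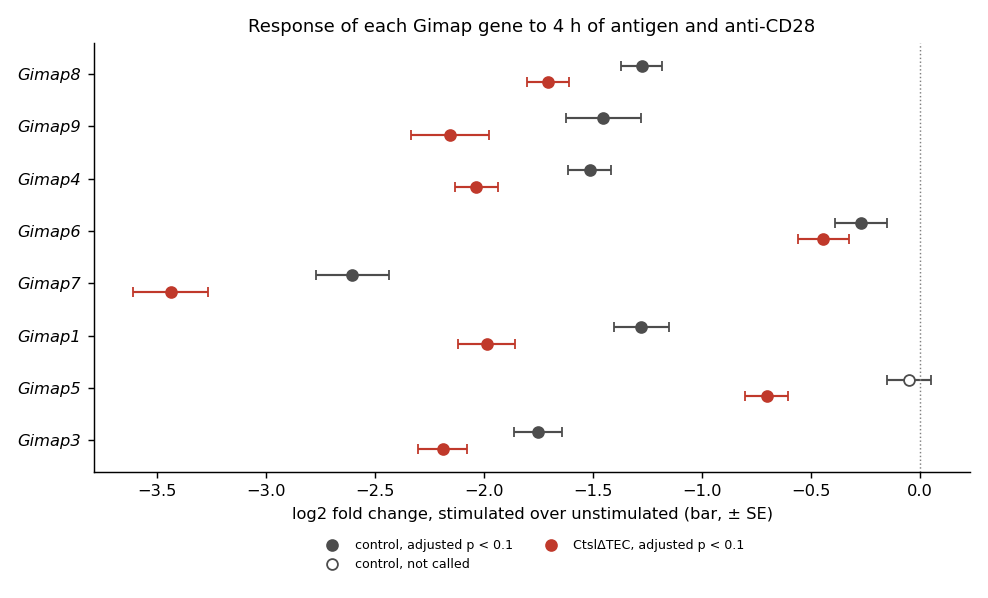
Log2 fold change of each member on stimulation, in chromosome order (points, edgeR estimates, open where the adjusted p was not below 0.1; bars, ± SE). *Gimap7* lay farthest to the left in both genotypes, at -2.60 and -3.44, and *Gimap5* and *Gimap6* closest to 0.

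The promoters of the members at the ends of this order were read for comparison. *Gimap7* and *Gimap3* had the largest falls in both genotypes and *Gimap5* and *Gimap6* the smallest. The 250 bases before the RefSeq start of each are printed in the direction of the gene (GRCm38.p6): chr6:48718371-48718620 (plus) for *Gimap7*, chr6:48770852-48771101 (minus) for *Gimap3*, chr6:48745947-48746196 (plus) for *Gimap5* and chr6:48708245-48708494 (minus) for *Gimap6*. Capitals mark matches to the searched motifs.
Gimap7: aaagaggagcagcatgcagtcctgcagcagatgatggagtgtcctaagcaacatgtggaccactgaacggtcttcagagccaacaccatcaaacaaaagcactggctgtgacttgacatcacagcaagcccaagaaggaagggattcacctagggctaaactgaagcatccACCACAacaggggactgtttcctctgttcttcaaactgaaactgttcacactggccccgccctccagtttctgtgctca
Gimap3: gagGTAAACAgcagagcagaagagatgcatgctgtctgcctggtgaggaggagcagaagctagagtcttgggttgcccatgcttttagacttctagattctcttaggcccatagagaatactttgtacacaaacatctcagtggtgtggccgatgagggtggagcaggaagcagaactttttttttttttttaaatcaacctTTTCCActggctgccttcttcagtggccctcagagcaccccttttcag
Gimap5: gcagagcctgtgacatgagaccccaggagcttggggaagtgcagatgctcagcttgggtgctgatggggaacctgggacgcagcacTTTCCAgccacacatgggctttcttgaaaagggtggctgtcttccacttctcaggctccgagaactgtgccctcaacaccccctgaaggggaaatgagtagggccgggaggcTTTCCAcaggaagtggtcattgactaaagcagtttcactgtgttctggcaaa
Gimap6: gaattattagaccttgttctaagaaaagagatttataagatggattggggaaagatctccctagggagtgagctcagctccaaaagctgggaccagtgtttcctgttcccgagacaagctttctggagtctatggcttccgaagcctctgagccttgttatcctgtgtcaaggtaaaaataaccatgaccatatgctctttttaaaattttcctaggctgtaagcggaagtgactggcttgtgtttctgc
The window from 250 bases before to 50 bases after the start was searched on both strands for 9 motifs, and matches printed here do not overlap. The 6-letter NFAT motif TGGAAA, bound by the factors that calcium signals activate, was found in 5 of 8 members (*Gimap1*, *Gimap3*, *Gimap4*, *Gimap5* and *Gimap8*) and in 21.4% of 32851 promoters. *Gimap5* held it 3 times, and *Gimap8* only in the window of the downstream of its 2 RefSeq starts. The RUNX motif TGTGGT was found in *Gimap1*, *Gimap4* and *Gimap7* and in 16.8% of promoters. The FOXO motif GTAAACA was found in *Gimap3* alone and in 3.65% of promoters, and the Ikaros motif TGGGAA in *Gimap3* alone and in 25.6%. The KLF motif CCACACCC, the ETS motif CCGGAAGT, the AP-1 motif TGANTCA, the NF-kB motif GGGAANTTC and the E box CAGCTG were in no member's window and in 3.56%, 3.89%, 7.81%, 1.08% and 16.3% of promoters. *Gimap6* and *Gimap9* held none of the 9 in this window. A match is a string of letters and was not tied to binding in these cells.

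After stimulation the called differences between genotypes were all in 1 direction. In stimulated cells 4 of 8 members were lower in CtslΔTEC than in control cells and none was higher, against 10.6% of 14241 genes lower and 2.77% higher. The median log2 difference of the members was -0.31, against -0.06 over all genes. Each group held 1 library with Y-linked transcripts and 1 without. The groups did not overlap in 5 of 8 members, the 4 called ones and *Gimap3*, as was so for 49.6% of all genes.

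*Gimap4* was lower as it had been at rest, with 316 and 285 CPM in control and 179 and 156 CPM in CtslΔTEC cells (log2 fold change -0.84 ± 0.11 SE; 1.78-fold lower; adjusted p = 0.00031). *Gimap1*, at 110.2 and 88.1 against 67.6 and 56.4 CPM, was 1.59-fold lower (-0.67 ± 0.14 SE; adjusted p = 0.00933). *Gimap9* was 1.57-fold lower (-0.65 ± 0.19 SE; adjusted p = 0.049), with 59.0 and 34.2 against 30.4 and 27.6 CPM. Without stimulated control mouse 5, the library with the fewest counts, the log2 fold change of *Gimap9* was -0.23 (adjusted p = 0.517), and without CtslΔTEC mouse 6 or 7 its adjusted p was 0.146 and 0.209. With the 4 stimulated libraries fitted alone the call of *Gimap9* was lost as well (adjusted p = 0.141). *Gimap5*, higher at rest, was 1.29-fold lower (-0.36 ± 0.12 SE; adjusted p = 0.0641), and its adjusted p was 0.301 without stimulated control mouse 5, 0.331 without stimulated CtslΔTEC mouse 7, and 0.127 and 0.141 without unstimulated CtslΔTEC mouse 2 or 3. This call of *Gimap5* was lost in 9 of 25 alternatives, also with upper-quartile factors (adjusted p = 0.112), at least 10 counts in every library (0.104), protein-coding transcripts alone (0.158), the 4 stimulated libraries alone (0.217) and a threshold of 0.05. *Gimap4* and *Gimap1* passed the threshold whichever of the 13 mice was left out, with adjusted p up to 0.00552 and 0.0987.

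The remaining members did not pass. *Gimap3* differed by -0.25 ± 0.12 (adjusted p = 0.211), *Gimap7* by -0.16 ± 0.19 (adjusted p = 0.697), *Gimap8* by -0.11 ± 0.10 (adjusted p = 0.604) and *Gimap6* by 0.04 ± 0.14 (adjusted p = 0.905) on the log2 scale (SE, edgeR). *Gimap7* and *Gimap8*, higher at rest in CtslΔTEC cells, thus had overlapping values in both genotypes once stimulated. The DP markers summed to 40.9 to 45.0 CPM in stimulated control and 83.2 to 91.6 CPM in stimulated CtslΔTEC libraries, and their part in these differences was not tested. Of the 10 DP markers 3 were higher there (*Cd8a*, *Cd8b1* and *Arpp21*) and 1, *Cd1d1*, was lower (-0.65, adjusted p = 0.0118), so that the sum does not stand for all 10.

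**Figure D4:**
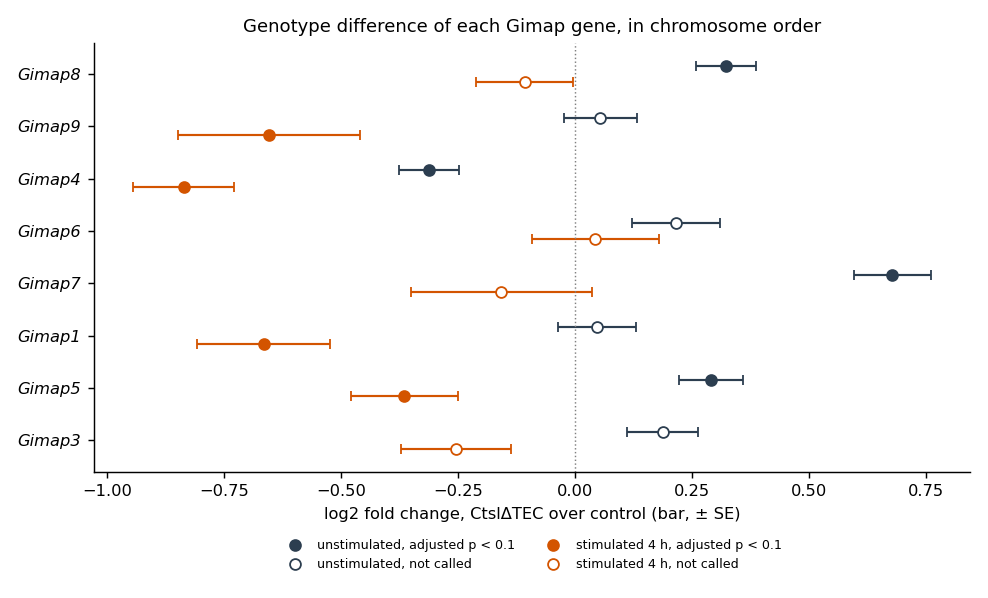
Log2 fold change between CtslΔTEC and control cells for each member at rest and after 4 h of stimulation, in chromosome order (points, edgeR estimates, open where the adjusted p was not below 0.1; bars, ± SE). *Gimap7*, *Gimap8* and *Gimap5* lay to the right of 0 at rest, whereas *Gimap4* lay to the left in both states.

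The interaction term asked whether the response itself differed between genotypes. All 8 estimates were negative, the sign of a more negative response in CtslΔTEC cells, and 5 of 8 passed the threshold, against 4.88% of 14241 genes with a negative and 1.13% with a positive interaction. The members' median was -0.59 on the log2 scale, against -0.07 over all genes. *Gimap5* differed by -0.65 ± 0.14 (SE; adjusted p = 0.0203), *Gimap1* by -0.71 ± 0.17 (SE; adjusted p = 0.0362), *Gimap4* by -0.52 ± 0.13 (SE; adjusted p = 0.039), *Gimap7* by -0.83 ± 0.22 (SE; adjusted p = 0.053) and *Gimap8* by -0.43 ± 0.13 (SE; adjusted p = 0.0791). *Gimap3* at -0.44 ± 0.14 (adjusted p = 0.11), *Gimap9* at -0.71 ± 0.23 (adjusted p = 0.117) and *Gimap6* at -0.17 ± 0.16 (adjusted p = 0.69) did not. For *Gimap7* and *Gimap8* the term combines a higher level at rest and levels that overlapped after stimulation, whereas *Gimap1* started level and ended lower and *Gimap5* passed from higher to lower. The call of *Gimap8* was lost in 17 of 23 alternatives, among them RLE factors (adjusted p = 0.11) and upper-quartile factors (adjusted p = 0.111). Those of *Gimap7*, *Gimap4*, *Gimap1* and *Gimap5* were lost in 6, 4, 2 and 0 of the 23. *Gimap9* and *Gimap3*, not called in the main fit, gained a call in 7 and 5 of the 23. The estimate of *Gimap9* ran from -1.076 to -0.283 over these alternatives. The interaction shares its libraries with the genotype differences and responses above and is not independent of them. It was the comparison most sensitive to single libraries: without stimulated CtslΔTEC mouse 7 only *Gimap5* passed (-0.55, adjusted p = 0.0936).

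The transcripts that made up a gene total also shifted. Of the estimated counts of *Gimap6*, the long transcript Gimap6-202 of 3179 bases took 16.3% to 31.6% in the 9 unstimulated libraries and 41.0% to 51.6% in the 4 stimulated ones. Gimap6-201 of 1594 bases took 63.9% to 82.6% and 44.8% to 56.3%. The ranges of both transcripts did not overlap between states. *Gimap1* showed a difference of another kind. Gimap1-201, its main coding transcript, took 77.6% of the counts in unstimulated control, 72.8% in unstimulated CtslΔTEC, 70.3% in stimulated control and 56.7% in stimulated CtslΔTEC cells. The retained-intron transcript Gimap1-204 took 7.54%, 9.34%, 10.3% and 17.2% in the same order. The single libraries of the first 3 groups overlapped for Gimap1-204, at 3.88% to 12.7%, and those of stimulated CtslΔTEC cells lay above them, at 16.2% and 18.2%. In *Gimap3*, Gimap3-201 took 28.8% to 33.9% of the counts at rest and 37.6% to 40.2% after stimulation. In *Gimap5*, the processed transcript Gimap5-203 took 0.92% to 5.4% at rest and 6.55% to 10.76% after stimulation. Its coding transcript Gimap5-201 took 66.76% to 79.24% at rest and 62.06% to 66.45% after stimulation. Over 90% of *Gimap4* counts stayed with Gimap4-202 in each of the 13 libraries (90.9% to 94.9%). These shares are estimates of the quantification software from reads that several transcripts share, and they were not tested.

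**Figure D5:**
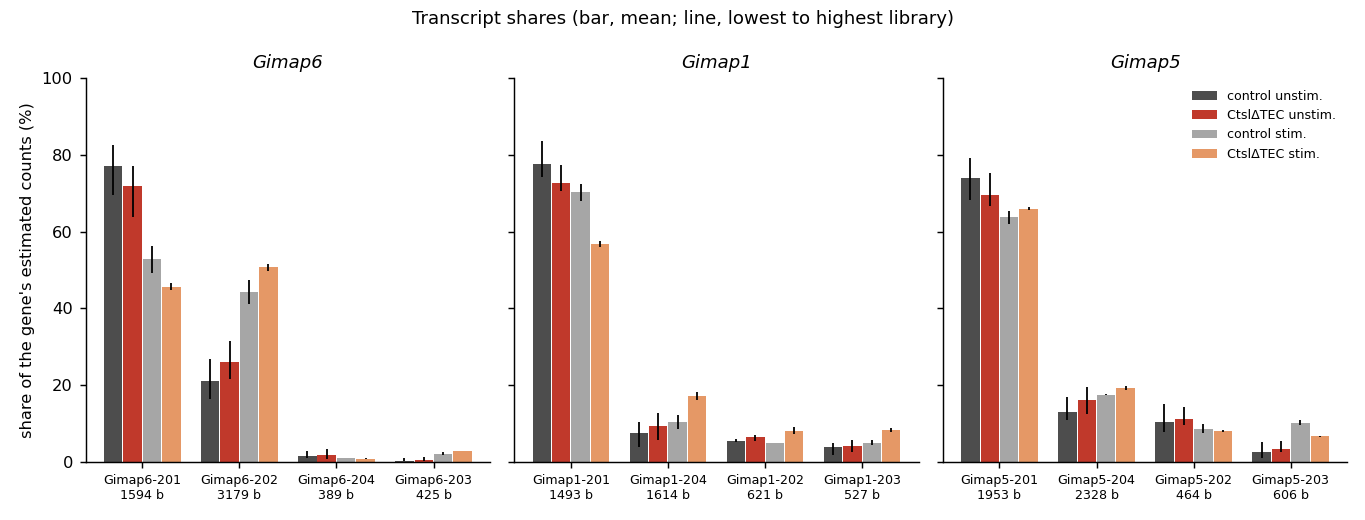
Share of each gene's estimated counts assigned to its transcripts (the 4 with the largest share in unstimulated control cells; bars, group means; lines, lowest to highest library; length in bases under each name). Gimap6-202 took 21.2% and 25.9% at rest and 44.2% and 50.7% after stimulation in control and CtslΔTEC cells.

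Genes that work with GIMAP proteins or share their field were compared in the same way. The counts of these lists and of the neighbours below stand beside the shares over all genes tested. At rest 6.42% were higher and 8.36% lower, and after stimulation 2.77% were higher and 10.6% lower. On stimulation 32.9% rose and 34.8% fell in control cells, and 32.9% rose and 38.2% fell in CtslΔTEC cells. An interaction was called for 1.13% as positive and 4.88% as negative. Of 13 genes for partners and survival factors (the BCL2 family, *Ctnnb1*, *Gsk3b* and the GABARAP and LC3 autophagy factors), 1 was higher and 1 lower in CtslΔTEC cells at rest. *Bcl2l11*, which encodes the death-promoting BIM, was higher (log2 fold change 0.53 ± 0.08 SE, adjusted p = 0.00142), and *Gabarapl2*, the partner of GIMAP6, was lower (-0.33 ± 0.06 SE, adjusted p = 0.00637). *Bcl2*, whose protein binds GIMAP family members in T cells, differed by -0.23 ± 0.11 (SE, adjusted p = 0.251). In stimulated cells 4 of the 13 were lower in CtslΔTEC cells and none was higher, among them *Bcl2l11* (-0.68, adjusted p = 0.00451), *Gabarapl1* (-1.27, adjusted p = 0.0239) and *Gsk3b* (-0.32, adjusted p = 0.0662). On stimulation of control cells 5 of the 13 rose and 6 fell. *Bcl2l1*, encoding the survival factor BCL-XL, rose by 3.70 ± 0.16 and *Bcl2l11* by 2.52 ± 0.11, whereas *Gsk3b* fell by 1.26 ± 0.09 on the log2 scale (SE; adjusted p = 5.24e-11, 6.1e-11 and 1.37e-08). *Bcl2l11* was the only gene of the list with a called interaction (-1.21 ± 0.16 SE, adjusted p = 0.00236).

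GTPases of other immune families (guanylate-binding, IRG and Mx proteins) were compared as relatives by function. Of 15 such genes 6 were higher and none lower in CtslΔTEC cells at rest, with *Gbp5* the clearest (1.00 ± 0.12 SE on the log2 scale, adjusted p = 0.000292). After stimulation 4 were lower in CtslΔTEC cells and none higher. In control cells 12 fell and 1, *Mx1*, rose (1.14 ± 0.28 SE, adjusted p = 0.00206), and in CtslΔTEC cells 14 fell and 1 rose. The median change of these genes was -2.44 in control and -2.60 in CtslΔTEC cells, against -1.36 and -2.01 for the *Gimap* genes.

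Among 29 genes of mature thymocytes and naive T cells, 4 were higher and 10 lower in CtslΔTEC cells at rest. The 4 higher ones were *H2-K1*, *H2-D1*, *B2m* and *Btg1*, by 0.35, 0.35, 0.34 and 0.30 on the log2 scale. Their adjusted p was 0.0467, 0.0633, 0.0243 and 0.048 in that order. *Foxo1*, a transcription factor of quiescent T cells, was lower by 0.46 ± 0.07 (SE), *Il7r*, the receptor for the survival factor IL-7, by 1.08 ± 0.17 (SE) and *Itgb7* by 0.45 ± 0.08 (SE) on the log2 scale, with adjusted p = 0.00167, 0.00194 and 0.00346. At rest the median log2 difference was -0.09 for this list and 0.20 for the *Gimap* genes. On stimulation 21 of the 29 fell in each genotype, with medians of -1.92 in control and -1.78 in CtslΔTEC cells. After stimulation 14 were lower and 3 higher in CtslΔTEC cells. The 10 activation genes used as a check of the label all rose in both genotypes. In stimulated CtslΔTEC cells *Il2* was lower (-3.55, adjusted p = 5.86e-05) and *Nr4a3* higher (0.68, adjusted p = 0.0301) than in stimulated control cells. The other 8 did not pass the threshold there.

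The genes around the cluster were counted in the same way. Within 250 kb of its ends 28 other genes had transcripts in the files, and 12 of these were transcribed enough to be tested at rest. There 1 was higher and 2 were lower in CtslΔTEC cells. The 1 higher gene was *Gm28053* (log2 fold change 0.78, adjusted p = 0.0301), which overlaps *Gimap7*, *Gimap1* and *Gimap5* and shares sequence with them, and the 2 lower ones were *Zfp467* and *AI854703* at -0.32 and -0.57 (adjusted p = 0.0299 and 0.0169). On stimulation 7 of 13 tested neighbours fell and 2 rose in control cells, with a median log2 change of -0.44. *Krba1*, the most highly transcribed of them, changed by -0.44 in control and by -0.50 in CtslΔTEC cells.

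Correlations over all 13 libraries repeat the contrast between stimulated and unstimulated cells. Pearson's r between *Gimap7* and *Gimap3* was 0.99 over 13 libraries. Among the 9 unstimulated libraries, which share genotype and depth differences, r was 0.94 between *Gimap7* and *Gimap8* and -0.94 between *Gimap4* and *Gimap5*. Genes whose log2 CPM was most like the mean of the members over 13 libraries were *Lipa*, *Inpp5k*, *Cdk19*, *Ccndbp1* and *Smap2* (r between 0.995 and 0.998, among 5680 genes whose log2 CPM averaged 5 or more). Over the 9 unstimulated libraries they were *Socs3*, *Xndc1*, *Epsti1*, *Slc16a5* and *Bhlhb9* (r between 0.950 and 0.965, of 5737 genes). No gene was in both lists.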

How the data were processed

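RNA was sequenced from sorted M2 CD4SP thymocytes, 13 libraries in 4 groups taken from the labels. The authors quantified transcripts with kallisto 0.48 (per the submitters' processing notes) on Ensembl 106 transcripts. Per transcript, the deposited tables give an effective length, TPM and estimated counts, the last not normalized. The labels describe polyA RNA and the study rRNA depletion. Here, estimated counts and TPM were summed to genes through GENCODE M21 (GRCm38), which held 116397 of 117497 transcripts, and counts were rounded. Transcripts without a gene took at most 0.461% of a library's counts. All 30 member transcripts had the same length in the files and in this annotation. Libraries held 25692380 to 39127833 counts at rest and 8085463 to 27184520 after stimulation, the lowest in control mouse 5. Counting error is therefore largest for *Gimap7* after stimulation.

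Genes kept by filterByExpr were compared with edgeR 4.0.16 in R 4.3.3 (TMM, quasi-likelihood test, Benjamini-Hochberg, threshold 0.1), at rest in 9 libraries and otherwise in a 4-group model of 13. Alternatives included DESeq2 1.42.0, other scalings and filters, covariates, thinning and leaving out each mouse. Because nothing links same-numbered mice, no pairing was used. log2 CPM has a prior count of 2. The tests were tried on simulated data first. No pair of replicates agreed within sampling noise. All members are named. Of other lists at most the 3 genes with the smallest p in a comparison are named, and any gene of the neighbourhood or of a list of 6 or fewer. *Mx1*, *Arpp21*, *H2-K1*, *H2-D1*, *B2m* and *Btg1* fall outside this rule and were named after their values were seen. Genes that spell out a marker list are named whatever their p. The members and lists were chosen with earlier results of these data known. Sequences are from RefSeq (GRCm38.p6) and GENCODE M21.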

Additional observations from a re-analysis of the deposited data

Results flagged for a closer look

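Within the unstimulated groups, 18 sets of values (8 members and the family sum in 2 groups) were searched for a single mouse far from the rest by Dixon's criterion, and 3 stood apart where chance gives about 1 in 20. *Gimap6* was far above the other control libraries in control mouse 4, with a gap of 0.855 of the group's range on the log2 scale, at 973 CPM against 727 to 758 CPM. It was also high in CtslΔTEC mouse 1, with a gap of 0.772 of the range, at 1028 CPM against 884 to 915 CPM. Both libraries carry the earlier of the 2 file dates at rest, as does CtslΔTEC mouse 3, whose *Gimap6* level was 907 CPM. In TPM each library of that date stood above the rest of its group. Control mouse 4 held 999 TPM against 686 to 733 TPM, and CtslΔTEC mice 1 and 3 held 1148 and 1092 TPM against 807 to 877 TPM. The part of the date was not tested for *Gimap6* alone, and with the date as a factor its genotype difference was 0.19 (adjusted p = 0.0981). The summed TPM of the family was low in control mouse 2, with a gap of 0.910 of the range, at 3143 TPM against 3355 to 3377 TPM.

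The response to stimulation differed between genotypes, by the interaction term, in 5 members, at -0.83 for *Gimap7*, -0.71 for *Gimap1*, -0.65 for *Gimap5*, -0.52 for *Gimap4* and -0.43 for *Gimap8* on the log2 scale. The estimates are negative where the response was more negative in CtslΔTEC cells. The call of *Gimap8* was lost in 17 of 23 alternatives, and that of *Gimap5* in none of them.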

How the results depend on the processing

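Of the members' fold changes under the alternatives and left-out mice, 873 of 952 kept their direction and their side of the threshold, 52 lost the call, 19 gained one and 8 changed sign. The number of members called was 4 at rest, 4 after stimulation, 7 and 8 for the responses of control and CtslΔTEC cells, and 5 for the interaction. At rest it was 1 with the Y-linked level as a covariate, 3 with a length offset and 6 with the file date as a factor, the other settings giving 3 to 5. Of all genes tested, 432, 1651 and 2710 were called in these settings in that order, against 1943 in the main fit. After stimulation it was 2 when the 4 stimulated libraries were fitted alone, and the interaction gave 3 at a threshold of 0.05 but 7 with DESeq2 and with library totals. The 4 stimulated libraries alone gave 1127 called genes in all, against 1898 in the main fit. The interaction called 471 genes at 0.05, 1050 with DESeq2 and 1033 with library totals, against 856 in the main fit. Leaving out each mouse in turn gave 4 to 5 members at rest, 2 to 4 after stimulation (2 without control mouse 5 or CtslΔTEC mouse 7), 6 to 7 and 8 for the responses, and 1 to 7 for the interaction. The interaction gave 1 without stimulated CtslΔTEC mouse 7, 2 without unstimulated CtslΔTEC mouse 2 or 3 or stimulated control mouse 5, 3 without stimulated CtslΔTEC mouse 6, and 7 without unstimulated CtslΔTEC mouse 1. The sign changed only in differences that did not pass the threshold: *Gimap1* at rest (-0.004 to 0.09 when a mouse was left out, negative without control mouse 2), *Gimap6* after stimulation (-0.014 with a length offset, -0.041 to 0.119 when a mouse was left out, negative without control mouse 6 and, at -0.003, without CtslΔTEC mouse 6), *Gimap7* after stimulation (-0.513 to 0.13, positive without control mouse 5) and *Gimap5* in the control response (0.039 with a length offset, 0.086 after thinning, -0.139 to 0.01 when a mouse was left out, positive without stimulated control mouse 6). The cause was not tested. Scaling by library totals moved the median of all genes in the CtslΔTEC response to -0.208. Same-numbered mice share only a number (correlations of their deviations -0.157, 0.352, -0.098 and -0.142). With the replicate block 3 members were called at rest, *Gimap5* being at 0.28 (adjusted p = 0.104), and 1051 genes in all against 1943. With the covariate for Y-linked transcripts 432 genes were called, 121 of them higher. Depth limits *Gimap7* most, at 95 estimated counts in stimulated control mouse 5.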
